A study of Mus musculus with 12 samples.

Results

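The effect of losing Ezh2 that female and male germ cells have in common was estimated from all 12 libraries of the study, 5 of Ezh2 conditional knockout (CKO) embryos and 7 of control (Ctrl) embryos. RNA was sequenced from primordial germ cells of C57BL/6 mice at E13.5 (embryonic day), with the germ cells of each embryo sorted and sequenced as a separate library. The 4 groups were female CKO (2 embryos), female Ctrl (3), male CKO (3) and male Ctrl (4). A single model held 1 term for sex and 1 for genotype. The genotype term is 1 CKO effect fitted to both sexes together, named the shared effect below, and a call can rest mainly on 1 sex. Of the 37991 gene identifiers in the table, 16708 had enough counts to be tested. The Cre driver, the deleted exons, the genotype of the controls and the litters are not given in the sources used here. It is therefore unknown whether controls carried the floxed allele or Cre, and p-values measure the spread between embryos without regard to litter.

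Ezh2 is the catalytic subunit of Polycomb repressive complex 2 (PRC2), which methylates lysine 27 of histone H3, and its partners Eed and Suz12 are needed for that activity. Polycomb repressive complex 1 (PRC1) reads the trimethyl mark through its Cbx subunits and ubiquitinates histone H2A, and both complexes keep developmental regulators silent in many cell types. At this stage germ cells have lost most DNA methylation, those of females begin meiosis and those of males stop dividing.

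Library totals lay between 26180685 and 35299206 counts. Levels are in CPM, the usual read count scaled to library size, here after scaling by TMM (trimmed mean of M values), and 1 CPM stood for 24.2 to 34.2 counts. Summed germ cell markers were at 6834 to 8364 CPM in all 12 libraries. Markers of Sertoli cells reached at most 64.4 CPM (male Ctrl 1), those of pregranulosa cells 29.8, of Leydig and interstitial cells 35.02 and of macrophages 11.7, and no member of these 4 lists was called. Sums reached 616 CPM for mesonephric epithelium (male CKO 2), 350 for endothelial cells (male Ctrl 2) and 116 for neural crest and glia (male Ctrl 4). The mesonephric sums were 233 to 300 CPM in all female libraries and 497 to 616 in all male ones. Whether germ cells themselves express markers of these lists was not tested, so a sum is no measure of other cells. Red blood cell markers reached 20.9 CPM (male CKO 1). Each of these other lists had called members, given at the end of the Results. In bulk RNA, fewer cells of a type and less RNA per cell cannot be told apart.

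The targeted gene was reduced in every CKO library without being lost. Ezh2 (ENSMUSG00000029687, chromosome 6) was at 150.1, 145 and 166 CPM in female Ctrl and 84.5 and 107 in female CKO. Male Ctrl libraries had 96.6, 144, 129 and 119 CPM and male CKO libraries 85.8, 82.4 and 85. The genotypes did not overlap within either sex, though male Ctrl 1 (96.6 CPM) was below female CKO 2 (106.7). The shared log2 fold change was -0.60 (SE 0.10, adjusted p = 0.00225 in edgeR), and it stayed past the threshold whichever library was left out. Counts over the whole gene cannot separate intact transcript from transcript with deleted exons.

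Across the tested genes, 987 were higher in CKO (5.91% of those tested) and 1005 were lower (6.02%), at an edgeR quasi-likelihood adjusted p under 0.05 (Benjamini-Hochberg). Over all called genes the rises were larger than the falls. The rises also lay at lower levels, and within bins of Ctrl level the median sizes were closer, as given below. Of the genes that rose, 479 changed at least 2-fold and 142 at least 4-fold, while 60 and 21 of the genes that fell did so. The median log2 fold change was 0.98 among the rises and -0.45 among the falls, with median SEs of 0.22 and 0.11. Scaling by library size alone moved this balance to 1356 higher and 642 lower, with a shift of 0.07 in the median log2 fold change of all genes.

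In 637 of the higher genes all CKO libraries were above all Ctrl libraries within each sex, and in 537 of the lower genes all were below. Over all tested genes, called or not, 4.6% and 3.93% were apart in this way. The fit had used these values, so the counts describe the calls. In 218 higher genes every CKO library was above every Ctrl library of either sex, and in 146 lower genes every one was below. Over all tested genes, called or not, this held for 243 (1.45%) and 162 (0.97%).

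The number of calls depended on single libraries. It was 1138 without female CKO 1, 1222 without female CKO 2 and 1099 without male CKO 3, against 1992 with all libraries. A core of 466 higher genes (2.79% of those tested) and 383 lower genes (2.29%) was called in each of the 12 fits that left out 1 library, and "kept" below means a member of this core. In the core, 266 rises and 29 falls were at least 2-fold. Genes named with a test below were kept unless a library is named beside them, followed by the edgeR adjusted p without it.

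Leaving out female CKO 1 and male CKO 1 together, an alternative chosen after seeing the data, called 1171 genes. These held 1044 of the 1992 genes called with all libraries (52.4%) and 728 of the 849 kept genes. Among the kept genes named below, Sytl4 (edgeR adjusted p = 0.0593 in that fit), Aurkc (0.065), Porcn (0.0501), Nkd1 (0.0559), Ndufa11 (0.0605), Pkp2 (0.0745), Nqo1 (0.0844), Gstp1 (0.0653) and Lpar3 (0.0587) lost their call.

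The sexes, which shared no libraries, moved in the same direction. Of the 987 higher genes 986 had a positive estimate in females and in males, and of the 1005 lower genes 1004 had a negative one in both. As the shared fit used both sexes, these counts describe the calls and are no separate evidence for them. Dync1i1, a dynein subunit gene, was the exception among the rises, with -0.09 in females and 1.5 in males (unadjusted p of the difference 5.6e-05), and its shared call was lost without female Ctrl 2 (0.0531), without female Ctrl 3 (0.0562), without male CKO 1 (0.075), without male CKO 2 (0.0852), without male CKO 3 (0.0867), without male Ctrl 1 (0.0658), without male Ctrl 2 (0.0649), without male Ctrl 3 (0.0847), without male Ctrl 4 (0.0818). Ddx3y, a Y-linked helicase gene with no counts in females, was the exception among the falls, at -0.57 in males, and its call was lost in every omission (adjusted p 0.0568 to 0.153) except that of male CKO 3.

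Calling genes in 1 sex and reading them in the other compared separate embryos. In females 503 genes rose (3.01% of those tested) and 695 fell (4.16%), and in males 201 rose (1.2%) and 83 fell (0.497%). Of the 503 genes that rose in females, 473 (94%) had a positive male estimate, against 47.7% of all tested genes, and their median log2 fold change was 1.66 in females and 0.79 in males. Of the 695 that fell in females, 647 (93.1%) had a negative male estimate, against 52.3% of all genes, with medians of -0.67 and -0.25.

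Starting from males gave shares of similar size. Of the 201 genes that rose in males, 195 (97%) had a positive female estimate, against 49.6% of all genes, with medians of 1.14 in males and 0.88 in females. Of the 83 that fell, 76 (91.6%) had a negative one, against 50.3%, with medians of -0.64 and -0.56. No gene was called in opposite directions in the sexes.

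**Figure D1:**
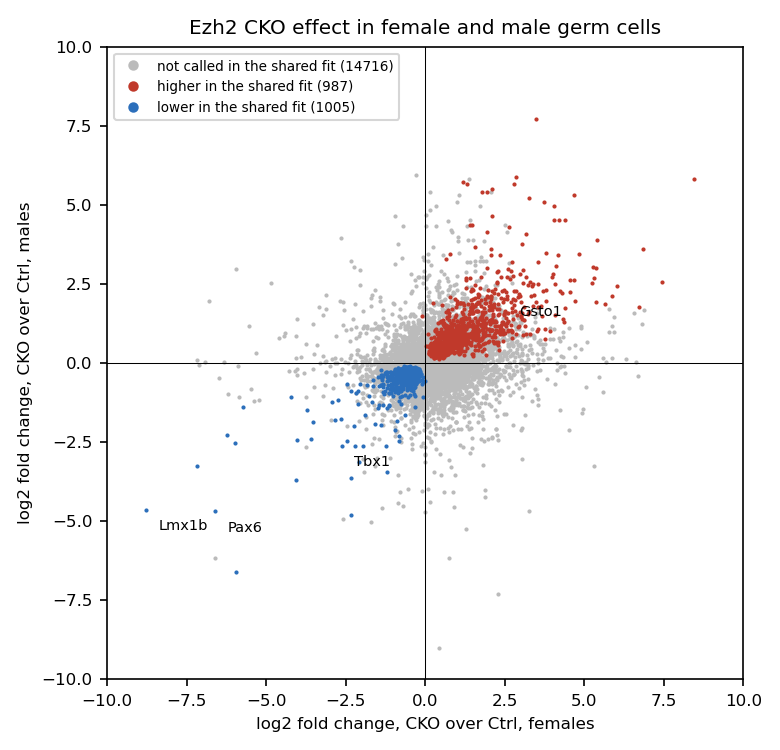
Each point is 1 of the 16708 tested genes, with its log2 fold change (CKO over Ctrl) in females on the x axis and in males on the y axis, coloured by its call in the shared fit. Called genes lie mostly in the lower left and upper right, with Lmx1b, Pax6 and Tbx1 far down and Gsto1 high in both sexes.

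Over all tested genes the female and male log2 fold changes had a Pearson r of 0.38 and a Spearman rho of 0.42, and r was 0.54 over the 10263 genes with a mean of at least 5 CPM. These are correlations across genes, which are not independent replicates. The size of the effect was larger in females for 60.5% of the rises and 77.9% of the falls. The difference between the female and male effects passed the edgeR test for 0 genes (0.0% of those tested), with a lowest adjusted p of 0.155 and 1401 genes (8.39%) at an unadjusted p under 0.05. These included 101 of the 987 called rises and 157 of the 1005 called falls. DESeq2 called a difference for 61 genes and limma-voom for 0, so the common direction does not show that the sizes were equal.

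Pooling the sexes brought out genes that neither sex called alone. There were 517 such rises, with a median log2 fold change of 0.80, and 511 such falls, with a median of -0.42. Of these, 117 rises and 112 falls were kept. In return, 119 rises and 230 falls called in females were not called in the shared fit, as were 10 rises and 10 falls called in males.

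Among the rises called in the pooled fit and in neither sex alone were 2 genes of calcineurin catalytic subunits. The rises named here were near the threshold in males, with edgeR adjusted p from 0.0512 (Nxt2) to 0.061 (Met). Ppp3cc was at 47.9, 44.9 and 36 CPM in female Ctrl, 94.1 and 72.6 in female CKO, 22.6, 7.8, 16 and 22.3 in male Ctrl and 33.9, 39.4 and 35.4 in male CKO. Its genotypes were apart within each sex, and the log2 fold change was 1.02 (SE 0.20, adjusted p = 0.00547 in edgeR). Ppp3ca changed by 0.57 ± 0.11 (log2 fold change ± SE, as below). Tppp3, a tubulin polymerisation gene, changed by 1.05 ± 0.20, S100a6, a calcium-binding protein gene, by 0.95 ± 0.18, and Met, the receptor of hepatocyte growth factor, by 0.84 ± 0.16. Nxt2, an X-linked cofactor of RNA export, changed by 0.68 ± 0.13, the elongation factor gene Tcea3 by 0.64 ± 0.12, and Psph, the last enzyme of serine synthesis, by 0.34 ± 0.07.

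The falls called in the pooled fit and in neither sex alone included genes of replication, splicing and chromatin. In males the edgeR adjusted p of those named here ran from 0.0513 (Anxa11) to 0.0895 (Mcm3ap). Pole, the catalytic subunit of DNA polymerase epsilon, was at 306, 256 and 257 CPM in female Ctrl and 218 and 189 in female CKO, and at 264, 239.6, 290.5 and 256 in male Ctrl and 206, 211 and 165 in male CKO. Every CKO library was below every Ctrl library, and the log2 fold change was -0.43 (SE 0.08, adjusted p = 0.00551 in edgeR). Snrnp200, a spliceosomal helicase, changed by -0.54 ± 0.11, Kat5, a histone acetyltransferase, by -0.54 ± 0.10, and Mcm3ap, which encodes the export factor GANP, by -0.59 ± 0.12. Spock2, Anxa11, Dalrd3 and Fiz1 changed by -0.75, -0.47, -0.59 and -0.38 on the log2 scale.

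The most significant rise was in a glutathione transferase gene. The genes named here by p or by size reached 5 CPM on average in CKO or in Ctrl libraries and had the genotypes apart within both sexes. Gsto1 (chromosome 19), an omega class enzyme that reduces dehydroascorbate, was at 10.4, 12.3 and 7.92 CPM in female Ctrl and 57.6 and 62.9 in female CKO. Male Ctrl libraries had 22.1, 21.1, 24 and 17.4 CPM and male CKO libraries 80.5, 102 and 95.9. Every CKO library was above every Ctrl library, with a log2 fold change of 2.31 (SE 0.13, adjusted p = 3.9e-07 in edgeR), 2.56 in females and 2.13 in males. The gene next in significance, Cadm1 (chromosome 9), encodes a cell adhesion molecule of the immunoglobulin family. Its levels were 29.3, 26 and 25.2 CPM in female Ctrl, 60.2 and 60.4 in female CKO, 26.9, 20.1, 27.5 and 23.1 in male Ctrl and 70.9, 71.5 and 82.4 in male CKO, again with no overlap between any CKO and any Ctrl library. The log2 fold change of Cadm1 was 1.44 (SE 0.11, adjusted p = 9.82e-06 in edgeR).

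The other rises with the smallest p among such genes included metabolic and surface protein genes. Umps, which encodes the enzyme that completes UMP synthesis, was at 93, 85.5 and 93.2 CPM in female Ctrl, 163 and 174 in female CKO, 90.3, 108, 91.3 and 86.2 in male Ctrl and 153, 179.8 and 154 in male CKO. It changed by 0.83 (SE 0.07, adjusted p = 4.66e-05 in edgeR). Dgat2, which makes triacylglycerol, went from a mean of 28.1 CPM over Ctrl libraries to 65.6 over CKO libraries, a log2 fold change of 1.28 (SE 0.11, adjusted p = 3.04e-05 in edgeR). B2m, the invariant chain of MHC class I, had 8.6, 8.69 and 8.51 CPM in female Ctrl and 22.8 and 23.1 in female CKO, and 4.73, 3.14, 2.75 and 3.41 in male Ctrl and 9.95, 10.3 and 12.5 in male CKO. Its change was 1.54 (SE 0.14, adjusted p = 5.6e-05 in edgeR), and Ddx43, a germline RNA helicase gene, changed by 1.01 ± 0.10. In all of these genes every CKO library was above every Ctrl library.

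By size, the leading rises among genes that reached 5 CPM and had the genotypes apart in both sexes included X-linked germline genes, lipid enzymes, a transcription factor and a transporter. Larger estimates stood at lower levels or without that separation, among them those of Prame, the globin gene Hba-x and Rad21l. Pramel3, of the PRAME-like family on the X chromosome, was at 0.154, 0.188 and 0.892 CPM in female Ctrl and 16.6 and 15.8 in female CKO, and at 0.788, 0.454, 0.0662 and 1.32 in male Ctrl and 1.96, 5.31 and 5.47 in male CKO. Its log2 fold change was 3.82 (SE 0.63, adjusted p = 0.00243 in edgeR). Alox15, a lipoxygenase of arachidonic and linoleic acid, changed by 2.84 ± 0.39, and Pla2g1b, a secreted phospholipase, by 2.28 ± 0.38. Nfib, a transcription factor of lung and brain development, changed by 2.48 ± 0.32, the cationic amino acid transporter Slc7a2 by 2.22 ± 0.32, the X-linked Rab27 effector Sytl4 by 2.21 ± 0.49, and Chst8, a sulfotransferase, by 2.10 ± 0.22. The other members of this group, Nxf3, Xlr5a, Xlr5b and Xlr5c, are described with the X chromosome.

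Among genes that met the same limits, the deepest fall was in Pax6 (chromosome 2), a homeobox and paired-box regulator of the eye, forebrain and pancreas. Ctrl libraries had 17.2, 12.9 and 23.2 CPM in females and 8.03, 18.4, 16.1 and 14.8 in males. CKO libraries had 0.0878 and 0.271 CPM in females and 0.44, 0.763 and 0.447 in males. No CKO library came near a Ctrl library, and the log2 fold change was -5.33 (SE 0.40, adjusted p = 9.82e-06 in edgeR). Tbx1 (chromosome 16), a T-box factor of the pharyngeal arches, was at 12.4, 9.66 and 8.23 CPM in female Ctrl, 1.49 and 1.78 in female CKO, 2.25, 3.75, 2.55 and 1.63 in male Ctrl and 0.305, 0.347 and 0.585 in male CKO. Female CKO 2 was above 1 of the male controls, but within each sex the genotypes were apart. The log2 fold change of Tbx1 was -2.62 (SE 0.26, adjusted p = 0.000118 in edgeR), -2.62 in females and -2.61 in males.

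Peg3 (chromosome 7), a paternally expressed imprinted zinc finger gene, was a fall at a high count. Its levels were 385, 465 and 475 CPM in female Ctrl, 116 and 162 in female CKO, 452, 444, 470.3 and 359 in male Ctrl and 219, 166 and 171 in male CKO. All 5 CKO libraries were below all 7 Ctrl libraries, and the log2 fold change was -1.40 (SE 0.12, adjusted p = 4.66e-05 in edgeR). Scgn, a calcium-binding protein gene of endocrine cells, changed by -2.07 ± 0.29, Insm1, a zinc finger factor of neuroendocrine cells, by -1.04 ± 0.23, and Lhx2, a LIM homeobox factor, by -1.13 ± 0.23. Ano8, Evpl, Phactr3 and Prr15l, further large falls, changed by -1.04, -1.04, -1.03 and -0.98 on the log2 scale.

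The smallest p among the falls within these limits were those of Pax6, Peg3 and Tbx1, and the next were smaller changes. Tsc2, whose product restrains mTORC1, was at 119, 120.2 and 123 CPM in female Ctrl, 70.3 and 79.7 in female CKO, 127, 141, 133 and 139 in male Ctrl and 101, 97.7 and 79.7 in male CKO. Every CKO library was below every Ctrl library, with a log2 fold change of -0.60 (SE 0.08, adjusted p = 0.000518 in edgeR). Pcbp4, an RNA-binding protein gene, changed by -0.61 ± 0.08, the phosphoinositide-binding Plekha1 by -0.45 ± 0.06, the phosphatase subunit Ppp6r3 by -0.58 ± 0.08 and Kndc1 by -0.85 ± 0.11.

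**Figure D2:**
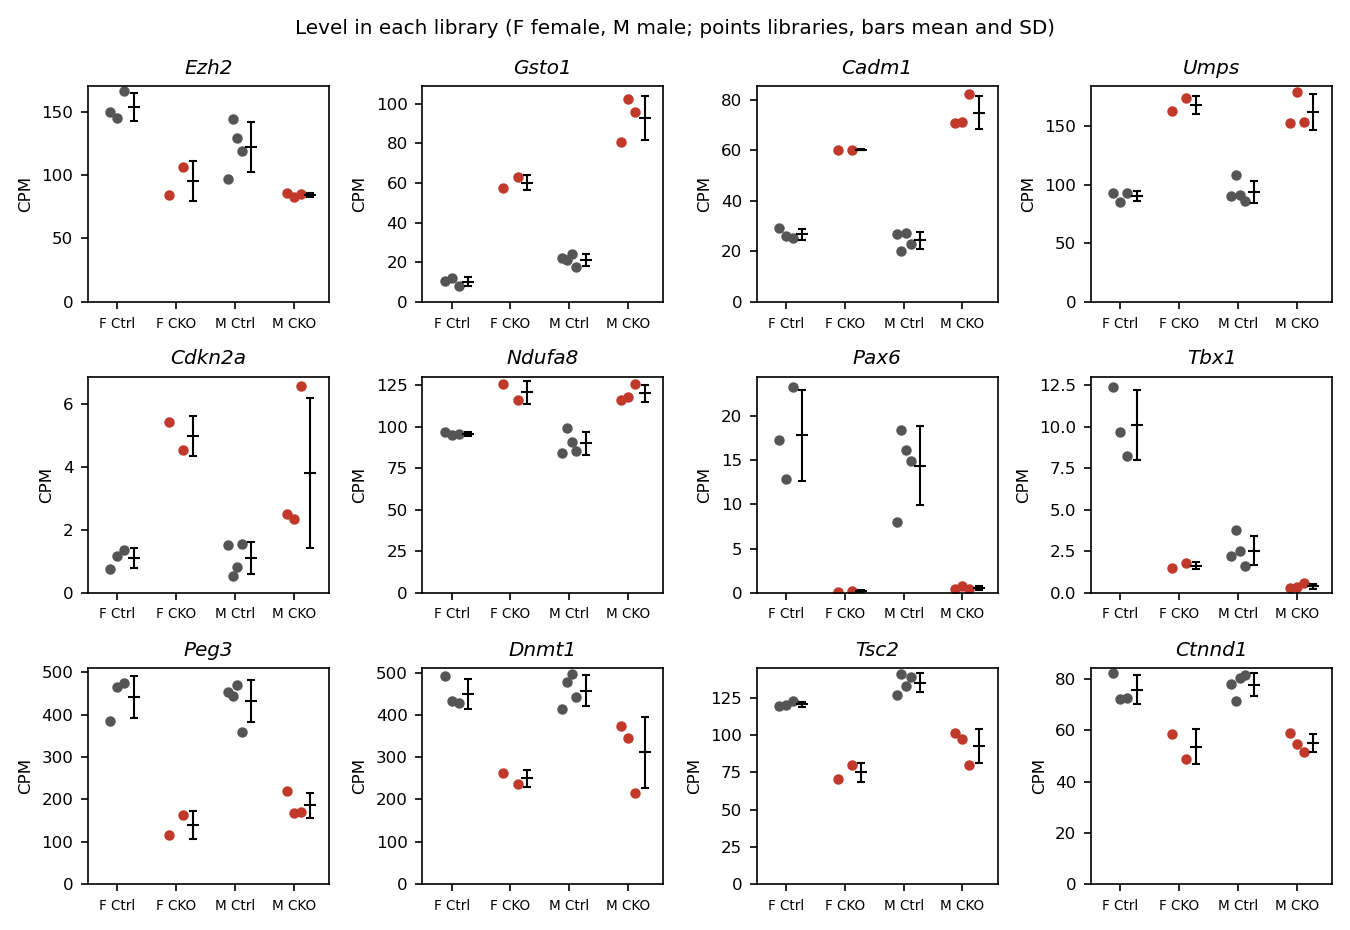
Each panel plots 1 gene, with its level in CPM on the y axis from 0 and the 4 groups on the x axis (F female, M male); points are libraries and bars the mean and SD of a group. Gsto1, Cadm1, Umps and Ndufa8 are higher in CKO in both sexes and Pax6, Peg3, Dnmt1, Tsc2 and Ctnnd1 lower, with no overlap between any CKO and any Ctrl library, while Ezh2 and Tbx1 are apart within each sex.

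Promoter sequence is shown for 6 genes that rose or fell in both sexes, picked after their values were seen to set promoters of different CpG content side by side. Each run covers 250 bases before and 50 after the annotated start in RefSeq on GRCm38.p6, is written 5′ to 3′ on the gene's strand, and has its CpG dinucleotides in capitals. A single annotated start is shown for each gene, and counts over a whole gene do not tell which start its transcripts used. The first 4 genes rose and the last 2 fell.
Gsto1, chr19:47854723-47855022, plus strand: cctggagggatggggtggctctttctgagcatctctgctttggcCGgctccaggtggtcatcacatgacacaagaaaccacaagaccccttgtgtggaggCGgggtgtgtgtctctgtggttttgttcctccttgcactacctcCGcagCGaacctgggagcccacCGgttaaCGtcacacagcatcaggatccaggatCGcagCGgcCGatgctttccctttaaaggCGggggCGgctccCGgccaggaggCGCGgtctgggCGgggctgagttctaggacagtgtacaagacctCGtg
Xlr5a, chrX:73117653-73117952, minus strand: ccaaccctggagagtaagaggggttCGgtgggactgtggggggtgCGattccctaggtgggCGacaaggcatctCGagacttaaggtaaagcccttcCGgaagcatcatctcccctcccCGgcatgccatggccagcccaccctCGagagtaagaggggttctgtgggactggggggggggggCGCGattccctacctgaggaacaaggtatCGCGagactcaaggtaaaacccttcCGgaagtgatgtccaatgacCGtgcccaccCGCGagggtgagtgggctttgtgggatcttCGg
Mageb4, chrX:86256170-86256469, minus strand: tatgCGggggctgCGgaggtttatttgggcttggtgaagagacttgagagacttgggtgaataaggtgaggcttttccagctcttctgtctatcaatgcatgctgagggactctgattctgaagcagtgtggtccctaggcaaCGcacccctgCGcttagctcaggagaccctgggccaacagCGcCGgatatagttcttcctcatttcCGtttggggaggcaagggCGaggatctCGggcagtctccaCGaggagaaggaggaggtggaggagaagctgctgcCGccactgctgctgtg
Cdkn2a, chr4:89294570-89294869, minus strand: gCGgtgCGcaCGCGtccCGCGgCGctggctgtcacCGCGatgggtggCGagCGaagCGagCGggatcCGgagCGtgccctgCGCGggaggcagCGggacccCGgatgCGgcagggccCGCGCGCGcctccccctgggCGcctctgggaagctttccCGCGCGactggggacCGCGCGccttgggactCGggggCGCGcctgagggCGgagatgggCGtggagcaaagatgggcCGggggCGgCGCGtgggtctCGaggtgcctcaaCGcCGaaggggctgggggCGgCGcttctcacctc
Pax6, chr2:105668646-105668945, plus strand: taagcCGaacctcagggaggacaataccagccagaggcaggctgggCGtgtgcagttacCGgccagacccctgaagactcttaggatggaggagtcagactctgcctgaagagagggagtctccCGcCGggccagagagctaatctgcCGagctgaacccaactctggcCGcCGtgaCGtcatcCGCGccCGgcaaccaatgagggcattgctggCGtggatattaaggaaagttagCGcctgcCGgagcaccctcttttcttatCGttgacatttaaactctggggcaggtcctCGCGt
Tbx1, chr16:18588850-18589149, minus strand: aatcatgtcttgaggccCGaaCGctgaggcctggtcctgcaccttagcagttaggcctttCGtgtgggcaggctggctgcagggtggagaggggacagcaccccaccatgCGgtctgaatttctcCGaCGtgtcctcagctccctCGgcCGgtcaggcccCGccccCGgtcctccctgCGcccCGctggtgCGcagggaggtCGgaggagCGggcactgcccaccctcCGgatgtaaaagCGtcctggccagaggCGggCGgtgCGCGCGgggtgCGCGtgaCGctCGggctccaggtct

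The ratio of observed to expected CpGs in these windows was 0.583 for Gsto1, 0.586 for Xlr5a, 0.478 for Mageb4, 1.04 for Cdkn2a, 0.698 for Pax6 and 0.729 for Tbx1. Over the 11830 tested genes with a promoter in that table the median ratio was 0.74, and 17.9% were CpG-poor, taken as a ratio under 0.4. The 744 promoters of higher genes had a median of 0.68, with 21.5% CpG-poor. Those of the 342 that rose at least 2-fold had a median of 0.55, with 32.5% CpG-poor. The 37 promoters of genes that fell at least 2-fold had the same median of 0.55, with 32.4% CpG-poor, while all 788 promoters of lower genes had a median of 0.81 and 9.9%. The differences between these medians were not tested.

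The promoters were also searched for 2 motifs. The E-box CACGTG was in 9.81% of promoters of higher genes, 12.6% of lower genes and 9.97% of all, and in 6.73% (23 of 342) of those that rose and 10.8% (4 of 37) of those that fell at least 2-fold. The letters GCGGGA, a core bound by E2F6, were in 37.5%, 35.5% and 35.1%, and in 35.1% and 27% of the 2-fold groups. These differences were not tested. Both strands were searched, neither motif contains the other, and a match is a description of letters and not of binding.

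Rises and falls lay at different read depths. Among 3854 tested genes with a Ctrl mean under 1 CPM, 6.62% were higher and 0.545% lower, while among 2818 genes at 100 CPM or more 1.67% were higher and 14.3% lower. The shares were 9.58% and 1.5% from 1 to 10 CPM, and 5.04% and 8.55% from 10 to 100. Within a bin, rises and falls were closer in size than over all called genes. Their median log2 fold changes were 1.98 and -2.05 under 1 CPM and 1.03 and -0.99 from 1 to 10 CPM. The medians were 0.51 and -0.47 from 10 to 100 CPM and 0.30 and -0.39 at 100 CPM or more. A gene with few Ctrl counts could pass the low-count filter through its CKO libraries alone, and such a gene had to be higher, so the lowest bin holds rises by construction. CPM is not divided by transcript length here, and the bins describe reads per gene. The longest annotated transcript had a median of 2873.5 bases among higher genes, 4566.5 among lower genes and 3149 among all tested.

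**Figure D3:**
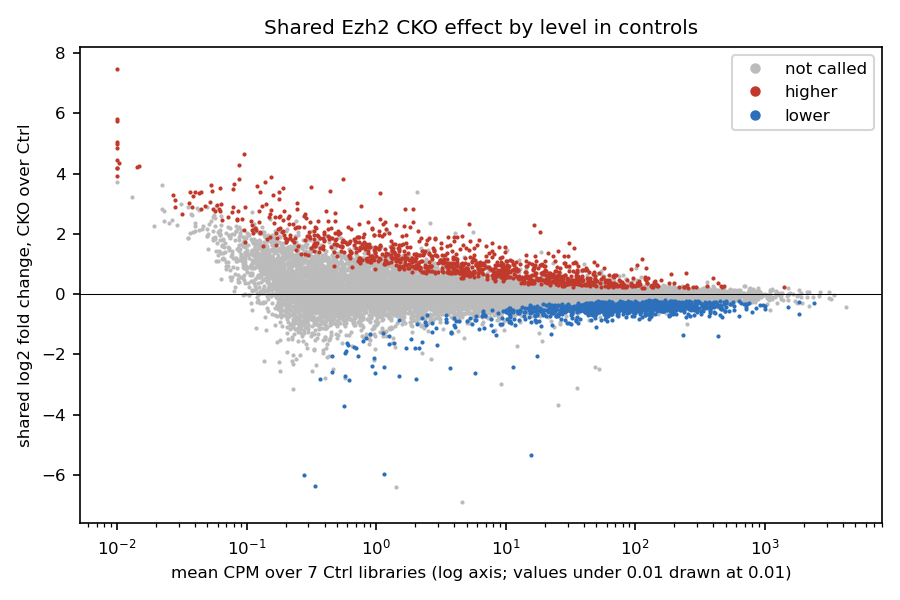
Each point is a tested gene, with the mean over the 7 Ctrl libraries in CPM on a log x axis and the shared log2 fold change on the y axis; red genes are higher in CKO, blue genes lower and grey genes not called. Red points spread upward at low levels, and most blue points form a shallow band under 0 at high levels, with a few deep falls such as Pax6 apart from it.

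Chromosome X held a higher share of rises than any autosome. Of its 671 tested genes 90 were higher (13.4%) and 28 lower (4.17%), against 5.76% and 6.26% of autosomal genes. The highest share of rises on an autosome was 7.62%, on chromosome 3. Of the 466 kept rises 64 were X-linked, and of the 383 kept falls 6 were. The median log2 fold change of all X-linked genes was 0.08. These shares were not tested. Leaving out chromosomes X and Y before scaling gave 909 higher and 958 lower among the 16029 genes then tested, which include genes with no chromosome assigned.

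**Figure D4:**
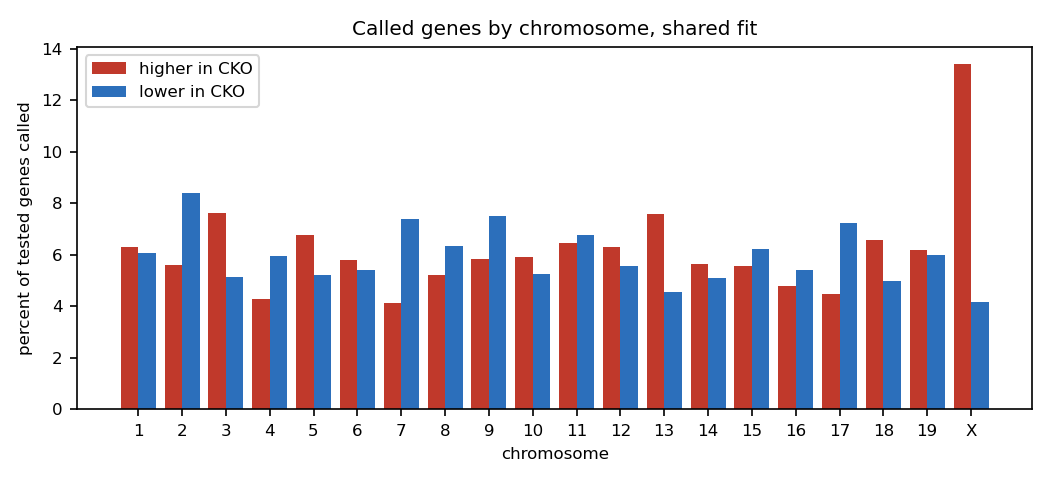
Bars give the percent of tested genes on each chromosome that were called higher (red) or lower (blue) in the shared fit. The X chromosome has 13.4% higher and 4.17% lower, and no autosome exceeds 8.38% in either direction.

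Germline gene families on the X chromosome held many of these rises. Of 39 tested members of a list of X-linked multicopy and cancer-testis genes, 17 rose (43.6%, against 5.91% of all tested genes), 0 fell and 22 were not called, with estimates from -1.54 to 3.82 and a median log2 fold change of 0.97 against -0.01 over all tested genes, and 15 were kept. A further 12 members of that list did not pass the low-count filter. Xlr5a, of a lymphocyte-regulated family related to the synaptonemal complex protein Sycp3, was at 7.65, 8.1 and 8.03 CPM in female Ctrl, 53.1 and 32 in female CKO, 4.79, 1.86, 2.42 and 3.9 in male Ctrl and 9.85, 18.5 and 19 in male CKO. All CKO libraries were above all Ctrl libraries, and Xlr5a changed by 2.34 (SE 0.23, adjusted p = 9.41e-05 in edgeR). Its relatives Xlr5b and Xlr5c changed by 2.38 ± 0.32 and 2.84 ± 0.40, and Xlr, Xlr3b, Xlr3c and Xlr4c by 1.02, 0.48, 1.06 and 0.81 on the log2 scale. Copies of this family are nearly identical, and how reads matching several places were counted is not given in the sources used here, so the division among copies is uncertain.

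Other X-linked germline genes were called as well. Mageb4, of the melanoma antigen family, was at 33.6, 39.1 and 38.1 CPM in female Ctrl and 164 and 112 in female CKO, and at 29.5, 44.3, 28.7 and 23.8 in male Ctrl and 60.0, 89.7 and 77.3 in male CKO. The genotypes did not overlap, and the log2 fold change was 1.53 (SE 0.17, adjusted p = 0.000209 in edgeR). Nxf3, an RNA export factor, changed by 2.92 ± 0.33, Rhox10 and Rhox13, reproductive homeobox genes, by 1.94 ± 0.25 and 1.84 ± 0.33, the transketolase-like Tktl1 by 1.59 ± 0.19, the deubiquitinase Usp26 by 0.97 ± 0.13 and Magea6 by 2.48 ± 0.60. Rhox2a, by contrast, had an estimate of 0.07 (edgeR adjusted p = 0.74), Rhox6 of -0.40 (0.603) and Mageb16 of -0.17 (0.403). Members outside the naming rule were chosen here and below after their values were seen.

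Several rises were neighbours. On the X chromosome 7 tested genes in a row rose, from Gm6207 over Pramel3 and Prame to Tcp11x2, with log2 fold changes from 2.39 to 7.48. Another 4 in a row were Xlr5a, Xlr5b, Xlr3b and Xlr4b (0.48 to 2.38), and 4 were Arxes1, Bex2, Nxf3 and Bex4 (0.55 to 2.92). On chromosome 5 a run of 4 ran from Tgfbr3 and Brdt to 1700028K03Rik (0.81 to 1.05). A lower run on chromosome 7 consisted of Peg3, Usp29 and Aurkc (-1.40 to -0.61), and 1 on chromosome 2 joined Nkx2-2, 6430503K07Rik and Foxa2 (-3.72 to -1.61). Runs were read from the calls with all libraries, whether kept or not. Xlr4b, Nkx2-2 and Foxa2 were not kept, and Nkx2-2 had 0 counts over female CKO and 6 over female Ctrl. Gene order is that of GENCODE M21, only tested genes count as neighbours, and overlapping genes cannot be separated in unstranded counts.

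Within Polycomb, few PRC2 genes besides the targeted Ezh2 were called, and the PRC1 genes split. Of 15 PRC2 genes 3 fell and 0 rose (20% and 0%, against 6.02% and 5.91% of all tested genes, median -0.08). The falls include Ezh2 itself, the targeted gene. Jarid2, an accessory subunit that brings PRC2 to targets, changed by -0.47 ± 0.10 and was kept. Suz12 was at -0.41 (edgeR adjusted p = 0.0315), a call lost without female CKO 1 (0.103), without female CKO 2 (0.0872), without female Ctrl 2 (0.0596), without female Ctrl 3 (0.0586), without male CKO 2 (0.0625), without male CKO 3 (0.0761). Eed (0.06, adjusted p = 0.707) and Ezh1, the second methyltransferase of the family (-0.11, 0.452), did not pass the test.

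Of 30 PRC1 genes, 4 rose and 7 fell (13.3% and 23.3%, against 5.91% and 6.02% of all tested genes, median -0.05), and 2 and 5 of these were kept. Cbx8, a chromobox reader of H3K27me3, was at 20.9, 13.51 and 15.7 CPM in female Ctrl, 10.7 and 7.55 in female CKO, 2.37, 1.11, 2.71 and 2.16 in male Ctrl and 0.711, 0.59 and 0.447 in male CKO. Within each sex the genotypes were apart, and Cbx8 changed by -1.35 (SE 0.26, adjusted p = 0.00613 in edgeR). Cbx2, a further chromobox gene, had -0.28 (edgeR adjusted p = 0.0942). The E3 ligase gene Ring1 changed by -0.72 ± 0.13, L3mbtl2 by -0.42 ± 0.10 and Usp7 by -0.32 ± 0.07, whereas Yaf2 and Phc2 rose by 0.49 ± 0.10 and 0.55 ± 0.13. Phc2 was at 0.19 in females (edgeR adjusted p = 0.515) and 0.81 in males (0.0115), and its genotypes overlapped in females. The difference between the sexes was not called for Phc2 (0.496). The PRC1 rises numbered 2 without any 1 of female CKO 1, female Ctrl 1, female Ctrl 3 or male CKO 3.

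Among enzymes of histone H3 lysine 27 and lysine 9 methylation 2 of 17 fell and 0 rose (11.8% and 0%, against 6.02% and 5.91% of all tested genes, median -0.21). Kdm3a, a demethylase of lysine 9, was kept at -0.51 ± 0.11. Kdm4c was at -0.42, and its call was lost without female CKO 1 (0.0507). Falls in this list numbered 4 without male Ctrl 2.

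The DNA methylation machinery moved in both directions. Dnmt1, the maintenance methyltransferase, was at 491, 432 and 428 CPM in female Ctrl, 264 and 236 in female CKO, 414, 477, 497 and 442 in male Ctrl and 373, 346 and 215 in male CKO. Every CKO library was below every Ctrl library, with a log2 fold change of -0.68 (SE 0.12, adjusted p = 0.00368 in edgeR). Dnmt3b, a de novo methyltransferase, rose from 9.12, 6.88 and 10.1 CPM in female Ctrl to 13.7 and 12.8 in female CKO, and from 11.6, 8.33, 11 and 12.1 in male Ctrl to 19.3, 21.6 and 20.2 in male CKO. These values also did not overlap, and Dnmt3b changed by 0.79 (SE 0.13, adjusted p = 0.00263 in edgeR). Zfp57, which protects imprints, changed by 1.57 ± 0.37. In the whole list of 14 genes for DNA methylation, TET enzymes and imprint protection, 2 rose and 2 fell (median -0.25), and 2 and 1 were kept. These are 14.3% each way, against 5.91% higher and 6.02% lower over all tested genes.

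Some germline genes known to be silenced by promoter DNA methylation rose. Of 28 tested, 10 rose (35.7%, against 5.91% of all tested genes), 0 fell and 18 were not called, with estimates from -0.29 to 1.71 and a median of 0.35, and 7 were kept. Tex101, a germ cell surface protein gene, was at 63.1, 75.3 and 38.3 CPM in female Ctrl, 257 and 159 in female CKO, 10.5, 7.01, 8.24 and 12.2 in male Ctrl and 18.7, 31.9 and 37.6 in male CKO. It was higher in CKO within each sex, with a log2 fold change of 1.71 (SE 0.21, adjusted p = 0.000385 in edgeR). Brdt, a testis bromodomain gene, changed by 0.93 ± 0.15, Slc25a31, a germ cell ADP/ATP carrier, by 0.71 ± 0.16, Tex19.1, a regulator of retrotransposons, by 0.36 ± 0.08 and the alpha-tubulin genes Tuba3a and Tuba3b by 0.53 ± 0.09 and 1.02 ± 0.17, whose reads may be shared. Dazl and Ddx4, on the same list, were at 0.07 and 0.13 (edgeR adjusted p = 0.479 and 0.418).

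The piRNA pathway, which silences transposons in germ cells, had 6 rises and 1 fall among 23 tested genes (median 0.15), and 4 and 1 were kept. The shares were 26.1% and 4.35%, against 5.91% and 6.02% of all tested genes. Gtsf1, a partner of Piwi proteins, was at 7.71, 9.7 and 5.18 CPM in female Ctrl, 48.5 and 33.8 in female CKO, 7.5, 4.54, 3.8 and 5.26 in male Ctrl and 8.26, 15.5 and 15.7 in male CKO. The genotypes were apart within each sex, and Gtsf1 changed by 1.81 (SE 0.26, adjusted p = 0.00118 in edgeR). Piwil4, the nuclear Piwi protein of fetal male germ cells, changed by 1.05 ± 0.17 and Asz1 by 0.49 ± 0.11. Tdrd12, a Tudor domain gene, went the other way, by -0.69 ± 0.13. Mael, Asz1 and Tex19.1 are on both of the last lists.

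Several meiotic genes rose, but their number depended on single libraries. Of 43 early meiosis genes 13 rose and 3 fell (30.2% and 6.98%, against 5.91% and 6.02% of all tested genes). The median was 0.22, with 0.48 in females and 0.09 in males, and 0 rises and 1 fall were kept. Without female CKO 1 the rises numbered 0 in edgeR, where the lowest adjusted p of a higher member was 0.0695 and 14 were higher at an unadjusted p under 0.05. They numbered 4 without female Ctrl 1, 7 without female Ctrl 2, 5 without female Ctrl 3, and 6 without male CKO 2 or male CKO 3. The falls numbered 1 without any of female CKO 2, female Ctrl 1, female Ctrl 3, male CKO 2 or male CKO 3.

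Stra8, the retinoic acid target that licenses meiosis, was at 296, 276 and 212 CPM in female Ctrl, 579.7 and 300.01 in female CKO, 1.81, 1.07, 2.22 and 3.56 in male Ctrl and 4.67, 9.74 and 5.02 in male CKO. Female libraries were far above male ones in both genotypes. Within each sex the CKO libraries were above the controls, with a log2 fold change of 1.15 (SE 0.27, adjusted p = 0.0156 in edgeR) that lost its call without female CKO 1 (0.0736). Rad21l, a meiotic cohesin subunit, had 0 counts over the male Ctrl libraries and 12 over male CKO, at least 5.27-fold higher at a floor of 3 counts over the group, and its shared call was lost without female CKO 1 (0.113). Sycp3, of the synaptonemal complex axis, was at 0.66 (edgeR adjusted p = 0.0322), a call lost without female CKO 1 (0.0695), without female Ctrl 1 (0.0699), without female Ctrl 2 (0.0577), without female Ctrl 3 (0.0693), without male CKO 2 (0.0551), without male CKO 3 (0.0698), without male Ctrl 3 (0.0539). Mlh3, a mismatch repair gene of crossovers, was the kept fall, at -0.57 ± 0.12.

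A few pluripotency genes were called. Of 31 tested, 1 rose and 6 fell (19.4%, against 6.02% of all tested genes, median -0.28), and 1 of each was kept. The difference between the numbers of falls and rises was not tested. Sall4, a zinc finger factor of germ and stem cells, was at 388, 420.2 and 398 CPM in female Ctrl, 204 and 337 in female CKO, 417, 419.6, 418 and 396 in male Ctrl and 345, 329 and 299.9 in male CKO. All CKO libraries were below all Ctrl libraries, with a log2 fold change of -0.44 (SE 0.10, adjusted p = 0.0142 in edgeR). Klf4 rose by 1.29 ± 0.22. Pou5f1 was at -0.33 (edgeR adjusted p = 0.0269), a call lost without female CKO 1 (0.0836), without female CKO 2 (0.0664), without female Ctrl 2 (0.0547), without female Ctrl 3 (0.0572). Nanog, at -0.50, did not pass the test (adjusted p = 0.095). In females alone Nanog was at -1.05 (edgeR adjusted p = 0.0177) and in males at -0.13 (0.773). Pou5f1 was at -0.56 in females (0.0142) and -0.17 in males (0.385). The difference between the sexes was not called for Nanog (0.493) or Pou5f1 (0.524). The list median was -0.45 in females and -0.09 in males. The falls numbered 1 without female CKO 1 or 2, 2 without female Ctrl 3, and 3 without female Ctrl 2, male CKO 3 or male Ctrl 3, and 2 under scaling by library size alone.

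Genes of the male germ cell program had 1 rise and 2 falls among 22 tested (4.55% and 9.09%, against 5.91% and 6.02% of all tested genes, median 0.21). The kept members were Piwil4 and Fgfr3, a growth factor receptor, at -0.60 ± 0.13. Nanos2, a regulator of male fate, was at 0.54 (edgeR adjusted p = 0.749). The rises numbered 3 without male Ctrl 1 or male Ctrl 2.

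Neural and ectodermal regulators, classical Polycomb targets, fell where they passed the test. Of 35 tested members 9 fell and 0 rose (25.7% and 0%, against 6.02% and 5.91% of all tested genes), with a median of -0.32. A further 27 did not pass the low-count filter. A gene with few CKO counts, such as Lmx1b, could pass that filter through its Ctrl libraries alone. Such a gene had to be lower, so the count holds falls by construction. The kept falls included Pax6, Lmx1b, Irx5 and Lhx2. Lmx1b, a LIM homeobox factor of limb and midbrain, had 0 counts over the female CKO libraries and 168 over female Ctrl, at least 40.3-fold lower at a floor of 3 counts over the group. In males it had 2 counts over CKO and 76 over Ctrl, a ratio of 0.0346 with an exact counting interval of 0.00412 to 0.13. Irx5, an Iroquois homeobox gene, had 2 counts over male CKO and 39 over male Ctrl, a ratio of 0.0675 (0.0079 to 0.261). The neural falls numbered 5 without female CKO 1 or without female CKO 2, and 3 under a filter of 5 CPM in 2 libraries. Counting intervals do not cover variation between embryos, and amplified reads are not independent molecules.

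Among 46 mesodermal and endodermal regulators 2 rose and 3 fell (4.35% and 6.52%, against 5.91% and 6.02% of all tested genes, median -0.05). The kept ones were the falls of Tbx1 and Six2. Six2, a kidney progenitor factor, was at 10.6, 3.28 and 5.56 CPM in female Ctrl, 1.58 and 0.782 in female CKO, 1.37, 2.02, 1.95 and 1.06 in male Ctrl and 0.575, 0.208 and 0.0688 in male CKO. The genotypes were apart within each sex, and Six2 changed by -2.46 (SE 0.43, adjusted p = 0.00316 in edgeR). Foxa2, a pioneer factor of endoderm, was at -1.61, a call lost without female CKO 1 (0.0555), without female CKO 2 (0.0638), without female Ctrl 3 (0.0515), without male Ctrl 3 (0.0548). Isl1 was at 1.66, a call lost without female CKO 1 (0.0695), without male CKO 3 (0.0686). The falls numbered 6 without male Ctrl 2.

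Hox genes, the textbook targets of Polycomb, stayed near the detection limit. Of 38 in the table, 26 did not pass the low-count filter, and of the 12 tested 0 were called in edgeR (4 at an unadjusted p under 0.05), 2 in DESeq2 and 2 in limma-voom, with estimates on both sides of 0 (median -0.47, 0.67 in females and -1.22 in males).

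Imprinted genes were called in shares of 5% to 15%, against 5.91% higher and 6.02% lower over all tested genes, so their counts were near the background. Of 20 paternally expressed genes 1 rose and 3 fell (median -0.07), and Peg3 and its neighbour Usp29, at -0.61 ± 0.13, were kept. Of 20 maternally expressed genes 1 rose and 2 fell (median 0.05), and Igf2r, the clearance receptor of Igf2, and Atp10a were kept at -0.53 ± 0.12 and -0.49 ± 0.10. Of 20 genes whose imprint depends on H3K27me3 in early embryos 1 rose and 2 fell (median 0.01), and Mbnl2, a splicing regulator, was kept at 1.15 ± 0.22. The paternal rises numbered 3 without male Ctrl 1.

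A CDK inhibitor and a D-type cyclin were among the kept rises. Cdkn2a, which encodes p16Ink4a and p19Arf and is a long-known PRC2 target, was at 0.768, 1.19 and 1.37 CPM in female Ctrl, 5.44 and 4.54 in female CKO, 1.52, 0.536, 0.827 and 1.55 in male Ctrl and 2.5, 2.36 and 6.57 in male CKO. All CKO libraries were above all Ctrl libraries, and male CKO held both the highest value and some of the lowest among CKO. The log2 fold change was 1.94 (SE 0.33, adjusted p = 0.00263 in edgeR). Ccnd1, cyclin D1, was at 45.2, 37.7 and 34.1 CPM in female Ctrl, 118 and 70.1 in female CKO, 5.05, 1.16, 2.91 and 2.73 in male Ctrl and 14.4, 15.8 and 25.5 in male CKO. Female libraries were above male ones in both genotypes, CKO was above Ctrl within each sex, and Ccnd1 changed by 2.05 (SE 0.32, adjusted p = 0.00187 in edgeR). In all, 3 of 14 CDK inhibitors and cyclins rose and 0 fell (21.4% and 0%, against 5.91% and 6.02% of all tested genes, median 0.17), and 2 were kept.

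Replication and mitosis genes had 0 rises and 3 falls among 40 (0% and 7.5%, against 5.91% and 6.02% of all tested genes, median -0.10). The meiotic kinase Aurkc was kept at -0.71 ± 0.16. The falls numbered 7 without male Ctrl 1. Apoptosis genes had 0 rises and 2 falls among 28 (0% and 7.14%, median -0.03), and 0 were kept.

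Some glutathione and redox enzymes besides Gsto1 rose. Of 48 tested, 12 rose (25%, against 5.91% of all tested genes), 1 fell (2.08%, against 6.02%) and 35 were not called, with a median of 0.22, and 7 rises and the fall were kept. Gsto2, the neighbour of Gsto1, was at 5.04, 6.16 and 4.49 CPM in female Ctrl, 19 and 15.7 in female CKO, 6.01, 3.14, 4.9 and 4.92 in male Ctrl and 10.4, 14.3 and 13.2 in male CKO. The genotypes did not overlap, and Gsto2 changed by 1.54 (SE 0.17, adjusted p = 0.000209 in edgeR). Sqor, which oxidises sulfide in mitochondria, changed by 2.42 ± 0.53, the glutathione transferases Gstm7, Mgst3 and Gstp1 by 0.97 ± 0.20, 0.61 ± 0.11 and 0.58 ± 0.12, and catalase (Cat) by 0.41 ± 0.09. Nqo1, a quinone reductase, was the fall, at -0.93 ± 0.21.

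Lipid genes moved in both directions. Of 31 genes of fatty acid handling and lipoxygenases 5 rose and 4 fell (16.1% and 12.9%, against 5.91% and 6.02% of all tested genes, median 0.03). The 5 rises were kept. Fabp5, a fatty acid carrier, was at 2.43, 5.79 and 1.99 CPM in female Ctrl, 7.9 and 10.7 in female CKO, 5.72, 2.72, 3.14 and 5.98 in male Ctrl and 22.2, 7.39 and 22.7 in male CKO. All CKO libraries were above all Ctrl libraries, with a log2 fold change of 1.77 (SE 0.33, adjusted p = 0.00481 in edgeR). Acsl4, an X-linked acyl-CoA synthetase of arachidonic acid, changed by 1.26 ± 0.18 and Lpar3, a receptor of lysophosphatidic acid, by 2.17 ± 0.49, joining Alox15 and Pla2g1b. The falls were genes of fatty acid synthesis and activation, and they numbered 0 without male CKO 3. Of 26 genes of cholesterol synthesis 0 rose and 1 fell (0% and 3.85%, median 0.01).

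Energy metabolism lists differed in their calls. Of 24 glycolysis genes 1 rose and 3 fell (4.17% and 12.5%, against 5.91% and 6.02% of all tested genes, median -0.16), 10 had an unadjusted p under 0.05, and Pdk1, which inhibits pyruvate dehydrogenase, and the glucose transporter Slc2a3 were kept at -0.72 ± 0.12 and -0.53 ± 0.11. The falls numbered 5 without any of male Ctrl 1, male Ctrl 2 or male CKO 1. Of 76 nuclear subunits of oxidative phosphorylation 3 rose and 0 fell (3.95% and 0%, median 0.01). Ndufa8, of complex I, was at 97.1, 94.8 and 95.7 CPM in female Ctrl, 126 and 116 in female CKO, 84.4, 99.3, 90.8 and 85.7 in male Ctrl and 116, 118 and 126 in male CKO. Its change was small, 0.38 (SE 0.06, adjusted p = 0.00249 in edgeR), with no overlap between genotypes, and Ndufa11 was kept at 0.30 ± 0.07. The rises in this list numbered 9 under scaling by library size alone. Of 79 cytoplasmic ribosomal protein genes 0 were called in edgeR (median -0.06), 2 had an unadjusted p under 0.05, and DESeq2 called 0 and limma-voom 1.

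Signalling lists held isolated changes. Of 26 Wnt genes 2 rose and 3 fell (7.69% and 11.5%, against 5.91% and 6.02% of all tested genes, median 0.14). Porcn, which lipidates Wnt ligands, the receptor Fzd7 and the destruction complex gene Apc were kept at -0.90 ± 0.18, -0.66 ± 0.13 and -0.38 ± 0.08, and the feedback inhibitor Nkd1 rose by 0.68 ± 0.14. Of 16 BMP response genes 2 rose and 0 fell (12.5% and 0%, median 0.04), and Smad1 was kept at 0.62 ± 0.10. Of 20 genes of retinoic acid response and transport 2 rose and 0 fell (10% and 0%, median 0.24), and the retinol carrier gene Rbp4 was kept at 1.37 ± 0.29. The BMP rises numbered 4 and the retinoic acid rises 5 without male Ctrl 1.

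Cell adhesion and cytoskeletal lists split. Of 27 keratins, cadherins and junction genes 4 rose and 5 fell (14.8% and 18.5%, against 5.91% and 6.02% of all tested genes, median 0.01). Ctnnd1, the p120 catenin that stabilises cadherins, was at 82.6, 72.4 and 72.7 CPM in female Ctrl, 58.4 and 48.9 in female CKO, 78, 71.5, 80.4 and 81.5 in male Ctrl and 59, 54.5 and 51.7 in male CKO, a change of -0.50 (SE 0.08, adjusted p = 0.00153 in edgeR) without overlap. Esrp1, an epithelial splicing regulator, changed by -0.49 ± 0.09, F11r and Pkp2 by -0.49 and -0.33, while the keratins Krt18 and Krt19 rose by 1.09 ± 0.17 and 2.19 ± 0.41 and Cdh2, N-cadherin, by 0.58 ± 0.11. Of 39 cilium genes 1 rose and 7 fell (2.56% and 17.9%, median -0.14), and the intraflagellar transport genes Ift43 and Ift140 were kept at 0.63 ± 0.13 and -0.51 ± 0.11. The cilium falls numbered 2 without female CKO 2 or male CKO 3, and 4 without female Ctrl 3, male CKO 2 or male Ctrl 3, and 4 under library size scaling.

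Stress and defence lists had few calls. Of 31 heat shock and unfolded protein response genes 2 rose (6.45%) and of 32 proteasome genes 2 rose (6.25%), against 5.91% of all tested genes. In either list 0 fell, against 6.02% of all tested genes (medians 0.06 and 0.08). Of 27 viral RNA sensors and interferon response genes 1 rose and 2 fell (3.7% and 7.41%, median -0.03). Of these 7 calls 0 were kept. Without male Ctrl 2 the proteasome rises numbered 6 and the interferon falls 4.

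**Figure D5:**
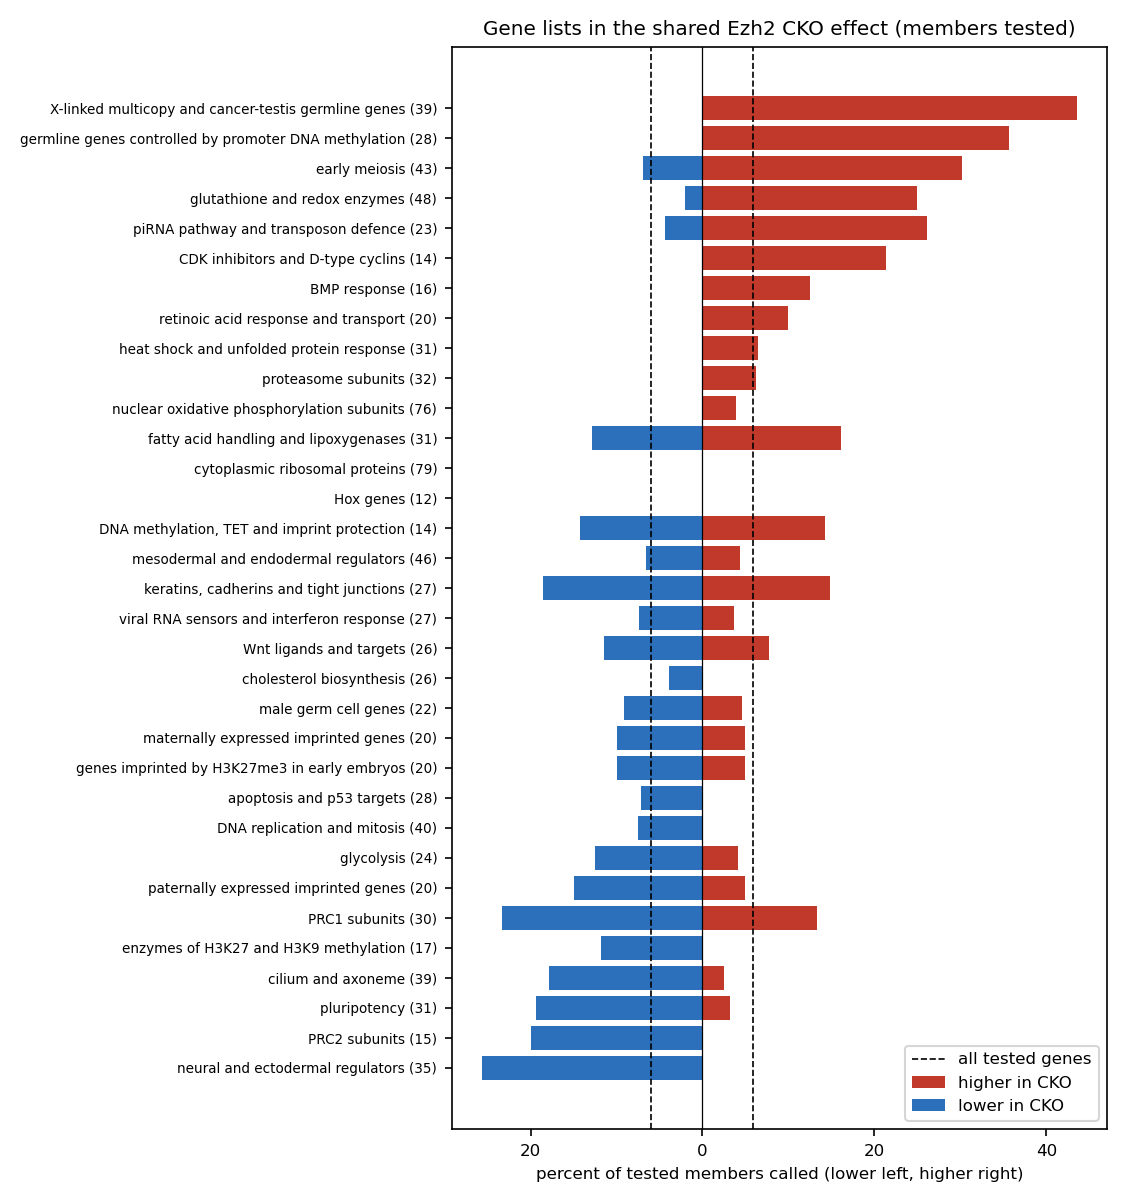
Horizontal bars give the percent of tested members of each of the 33 pathway lists that were called higher (red, right) or lower (blue, left), with the number tested in brackets and dashed lines at the share over all tested genes. The X-linked and methylation-controlled germline lists reach furthest to the right with no falls, and the neural list reaches furthest to the left with no rises.

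Markers of other cell types also differed in some lists. Summed red blood cell markers were at 0.585 to 20.9 CPM in CKO and 0.0993 to 2.28 in Ctrl libraries, with the highest sums in male CKO 1 (20.9) and female CKO 1 (16.6), and 4 of 6 tested globin and related genes rose, of which 0 were kept. Leaving out both of these libraries gave 525 higher and 646 lower genes, a set that kept 52.4% of the calls made with all libraries. Endothelial markers summed to 147 to 175 CPM in female CKO and 250 to 313 in female Ctrl, mostly Pecam1, but to 252 to 278 in male CKO and 175 to 350 in male Ctrl, which overlap. Of 8 tested endothelial markers, 2 (Egfl7 and Cdh5) rose and were kept (25%). Of 8 mesonephric epithelium markers 3 rose (37.5%), including Krt18 and Krt19, and of 4 tested neural crest and glial markers 1 fell (25%). Of 12 germ cell markers 1 rose (8.33%) and 3 fell (25%). The share of rises among red blood cell markers was 66.7%. Over all tested genes 5.91% rose and 6.02% fell. The part of these cells in the gene changes was not tested.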

How the data were processed

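Amplified cDNA of sorted germ cells from 12 embryos was sequenced, and per the labels' protocols it was made with SMART-seq V4 and NEBNext Ultra II, which do not mark the strand. The authors deposited 1 table of unnormalised counts with a column for each library. Tools credited in the submitters' processing notes are TopHat2 2.0.11, featureCounts, Trimmomatic 0.33 and CASAVA 1.8.4, with NCBIM37 and mm9 as builds, and the treatment of reads matching several places is not given in the sources used here. Symbols, chromosomes, gene order, transcript length and GC content came from GENCODE M21 on GRCm38, a different build from that of the counts, and 32919 identifiers with 99.5% of the counts matched a symbol. Promoters came from RefSeq on GRCm38.p6, matched by symbol.

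Groups were taken from the labels. Low-count genes were removed by filterByExpr with the 4 groups, at a minimum count of 10 and a minimum total of 15. Counts were scaled by TMM and fitted in edgeR 4.0.16 (robust quasi-likelihood, R 4.3.3) with sex and genotype as additive terms and 9 residual degrees of freedom. A fit with 1 term per group and 8 residual degrees of freedom gave the effect in each sex and their difference. P-values were adjusted by Benjamini-Hochberg over all 16708 genes and called under 0.05, and the SE was the log2 fold change divided by the root of the F statistic. Libraries of a group differed beyond counting noise, with a mean chi-square per gene of at least 16.8. Counting intervals and the floor of 3 counts cover counting error only.

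Members and gene lists (33 pathway and 9 marker lists) were chosen with earlier results of these data known. Named genes were Ezh2, the 12 largest changes in each direction and the 8 with the smallest p among called genes with an ordinary symbol, at least 5 CPM and genotypes apart within both sexes, the 8 smallest p in each direction called in neither sex alone, up to 3 called members per list, and Stra8, Sycp3, Dazl, Ddx4, Pou5f1, Nanog and Cdkn2a. Some genes meeting this rule are not reported here. Alternatives were other scaling, filters, DESeq2 1.42.0, limma-voom (limma 3.58.1), no sex term, equal weight of the sexes, replicate blocks, length and GC trends, chromosomes X and Y left out, and each library left out.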

Additional observations from a re-analysis of the deposited data

Results flagged for a closer look

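All 12 results below come from the male Ctrl group, the 1 group of 4, in which 1 library stood apart from the other 3. The number for each gene is the gap to the nearest library as a share of the group's range, set against Dixon's 95% critical value. Of 208 genes checked, 12 passed, and chance flags about 1 in 20 groups.

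The highest library stood apart for 6 genes. Nxt2 was at 9.57 CPM in male Ctrl 2 and at 6.95 in the next library (0.859), Tdrd12 at 86.6 and 56.6 in the same library (0.923), and Porcn at 19 and 10.6, also in male Ctrl 2 (0.882). Insm1 was at 3.8 CPM in male Ctrl 3 against 2.34 (0.872), Nfe2l2 at 57.9 in male Ctrl 3 against 54.0 (0.939), and Lpar3 at 0.492 in male Ctrl 4 against 0.124 (0.938).

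The lowest library stood apart for the other 6. Spock2 was at 2.91 CPM in male Ctrl 4 against 3.75 (0.91), Sall4 at 396 against 417 (0.872), Cdh2 at 11.7 against 15.2 (0.838) and Fasn at 406 against 460.0 (0.907), all in that library. Gdf3 was at 38.0 CPM in male Ctrl 1 against 53.1 (0.929) and Dnajb9 at 25.6 against 28 (0.906). Each of the 12 genes kept its shared call when the library that stood apart was left out.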

How the results depend on the processing

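No gene called with all libraries was called in the opposite direction under any of the 26 alternatives. DESeq2 called 1507 higher and 1392 lower genes, limma-voom 1649 and 1472 (3121 in all), and the fit without a sex term 104 and 43 (147), since differences between the sexes then enter the spread. Library size alone gave 642 lower genes. Leaving out 1 library gave 600 to 1267 higher, 467 to 1132 lower and 1099 to 2385 called genes, with the most without male Ctrl 1. Leaving out female CKO 1 and male CKO 1 together, an alternative chosen after seeing the data, gave 525 higher and 646 lower, 1171 in all. The difference between the sexes was called for 61 genes in DESeq2 and for 0 to 3 when 1 library was left out. Whether replicate numbers pair the embryos is not known. Same-numbered CKO and Ctrl libraries deviated from their group means with r from -0.024 to 0.108. With so few libraries per group, these correlations cannot exclude pairing or shared litters. With the title number as a replicate block, 445 genes were higher and 504 lower (949), and with the embryo number of the column names 18 and 6 (24), where Ezh2 was at -0.51 (edgeR adjusted p = 0.0949). The group of 2 female CKO embryos limits the precision of the female effect, and at 24.2 to 34.2 counts per CPM a gene under 1 CPM rested on few counts.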
